A study of Mus musculus with 8 samples.

Results

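Neutrophils store their secreted antimicrobial proteins in granules that are filled in sequence as the cells mature in the bone marrow. Transcripts of the secondary (specific) granule proteins, among them lactoferrin, cathelicidin and lipocalin 2, peak in intermediate precursors, whereas the collagenase Mmp8 and the resistin-like protein Retnlg are most strongly transcribed in later stages. The genes were taken as a measure of mature cell RNA in each sorted stem cell library.

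The 9 genes described here were chosen by name as late neutrophil genes with secreted, granule or surface products, from the 23358 genes of the count table. They are Retnlg, Mmp8, S100a8, S100a9, Ltf, Ngp, Camp, Lcn2 and Cd177, and all 9 were among the 14086 genes that passed the filter on low counts and were tested. RNA was sequenced from 8 samples of mouse bone marrow stem cells with the surface profile Lin-Sca+Kit+CD48-CD150+, sorted and put straight into lysis reagent without culture. The groups were wild type ("Huwe1 WT", 3 libraries), knockout of the ubiquitin ligase gene Huwe1 after inducible deletion ("Huwe1 KO (Mx1-Cre)", 3 libraries) and knockout by constitutive deletion ("Huwe1 KO (Vav-Cre)", 2 libraries). Mx1-Cre is driven by an interferon-responsive promoter and Vav-Cre by regulatory elements active throughout blood cells. The labels name no agent for the induction, state no treatment, give no age or Cre status for the wild type animals and do not say which antibodies made up the lineage panel. They also do not say whether the samples of a group came from separate animals, so the p-values describe only how these samples spread, which may be technical.

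Library totals ran from 28689765 to 33202926 counts and 14601 to 15554 genes had a count. Huwe1 itself was at 421 ± 20.5 CPM (counts per 1000000 counts of the library, scaled with TMM; SD, n = 3) for wild type libraries, 418 ± 23.4 (n = 3) for Mx1-Cre and 467 ± 32.2 (n = 2) for Vav-Cre libraries; a count over the whole gene does not test the deletion of part of it. All 20 stem cell markers of the list used had counts in every library, with summed levels of 6778 to 7700 CPM for wild type libraries, 5022 to 7577 for Mx1-Cre and 7151 to 7185 for Vav-Cre.

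The 9 late neutrophil genes together made up a small share of each library, and that share varied widely inside every group. In wild type libraries 1, 2 and 3 they took 9719, 16038 and 37124 counts, in Mx1-Cre 1, 2 and 3 they took 15074, 15736 and 2800, and in Vav-Cre 1 and 2 they took 197 and 9052. The Vav-Cre pair thus differed more from each other than wild type 1 did from Vav-Cre 2. As shares of all counts these were 0.0329, 0.0539 and 0.118% among wild type libraries, 0.0454, 0.0548 and 0.00967% among Mx1-Cre, and 0.000687% (exact 95% binomial interval 0.000594 to 0.000790, counting error only) and 0.0287% among Vav-Cre. Summed levels were 667 ± 435 CPM for wild type libraries (n = 3), 379 ± 247 for Mx1-Cre (n = 3) and 144 ± 193 for Vav-Cre (n = 2), so the SD within each group was of the order of the differences between groups. In such bulk samples fewer neutrophil-lineage cells and less RNA of these genes per cell cannot be told apart.

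Library by library, Vav-Cre 1 held the lowest or joint lowest level for 8 of the 9 genes (all but Mmp8), and Mx1-Cre 3 came next or tied for 7. Wild type 3 was highest for 8, with Mmp8 again the exception. Vav-Cre 1 and Mx1-Cre 3 stood apart from the other libraries of their groups in the amount of these transcripts.

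**Figure D1:**
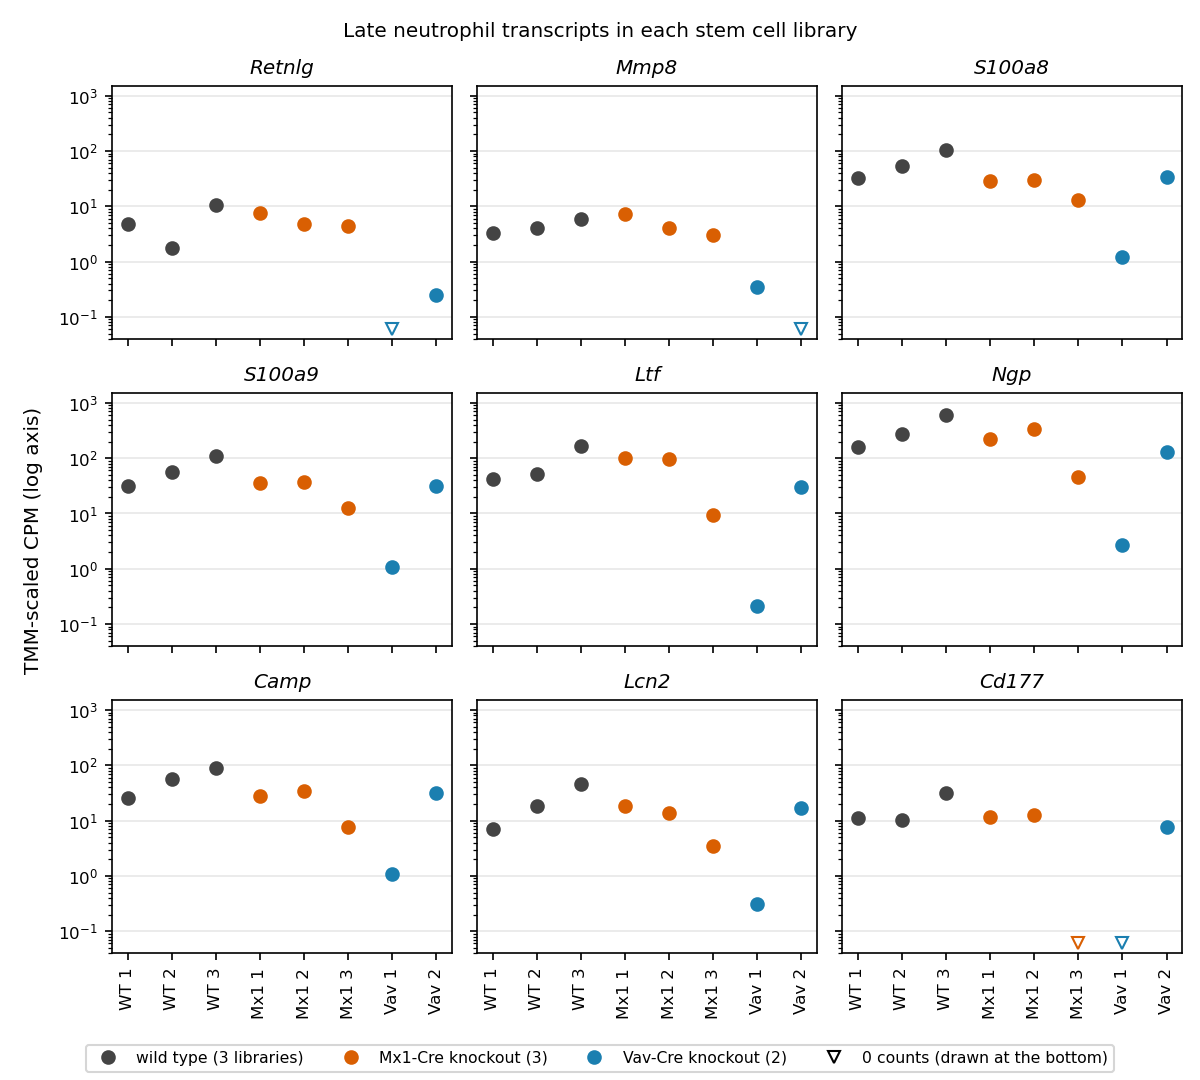
TMM-scaled CPM of each of the 9 genes (1 panel a gene, log axis) in the 8 libraries, coloured by group, with open triangles for 0 counts. For the 6 genes S100a8, S100a9, Ltf, Ngp, Camp and Lcn2 the Vav-Cre 1 library lies far below the rest and Vav-Cre 2 near the wild type libraries, whereas Retnlg and Mmp8 are at or near 0 in both Vav-Cre libraries.

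Retnlg and Mmp8, the 2 genes of later stages, were at or near 0 in both Vav-Cre libraries, whereas the other 7 genes had 246 to 4139 counts in Vav-Cre 2. In Vav-Cre 1 the other 7 genes were low as well, at 0 (Cd177) to 76 (Ngp) counts. Within the Vav-Cre group the contrast between the pair and the other 7 genes thus rested on Vav-Cre 2 alone. Retnlg, which encodes a secreted resistin-like protein, had 146, 54 and 338 counts among wild type libraries 1, 2 and 3, 248, 132 and 126 among Mx1-Cre 1, 2 and 3, and 0 and 8 among Vav-Cre 1 and 2. Both Vav-Cre libraries lay below all 6 others, and the Mx1-Cre libraries lay inside the wild type range. The means were 5.70 ± 4.44 CPM for wild type libraries (n = 3), 5.64 ± 1.76 for Mx1-Cre (n = 3) and 0.124 ± 0.175 for Vav-Cre (n = 2). In edgeR's quasi-likelihood test the log2 fold change was -5.43 ± 1.06 (SE) for Vav-Cre against wild type (unadjusted p = 0.000384, Benjamini-Hochberg adjusted p = 0.0556) and -5.41 ± 1.05 for Vav-Cre minus Mx1-Cre (adjusted p = 0.0817). Both adjusted values missed the threshold of 0.05. Against wild type the Mx1-Cre difference was -0.02 ± 0.67.

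Mmp8, neutrophil collagenase, had 98, 122 and 188 counts among wild type libraries, 238, 114 and 87 among Mx1-Cre, and 10 and 0 among Vav-Cre libraries. Here too the Vav-Cre libraries did not overlap with any other, but it was Vav-Cre 1 that kept a few counts. Levels were 4.36 ± 1.34 CPM for wild type libraries (n = 3), 4.86 ± 2.22 for Mx1-Cre (n = 3) and 0.175 ± 0.248 for Vav-Cre (n = 2). The log2 fold changes were -4.65 ± 0.95 for Vav-Cre against wild type (edgeR adjusted p = 0.0632), -4.81 ± 0.95 for Vav-Cre minus Mx1-Cre (adjusted p = 0.0884) and 0.16 ± 0.63 for Mx1-Cre against wild type. The 0 of Retnlg in Vav-Cre 1 and of Mmp8 in Vav-Cre 2 allow up to 3 counts, or 0.105 and 0.0930 CPM.

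DESeq2, the alternative test, called both genes lower in Vav-Cre, with adjusted p = 7.08e-08 for Retnlg and 1.97e-07 for Mmp8 against wild type and 1.10e-07 and 7.97e-08 against Mx1-Cre. Without the filter on low counts edgeR also called them against wild type (adjusted p = 0.0175 and 0.0221) and against Mx1-Cre (0.0221 and 0.0243). Without Vav-Cre 1, where the only Vav-Cre library left had 0 counts of it, edgeR called Mmp8 against wild type (adjusted p = 0.0114) and against Mx1-Cre (adjusted p = 0.00819). The Retnlg difference from wild type was -4.50 without Vav-Cre 1, and that of Mmp8 was -3.62 without Vav-Cre 2, then the smallest of the 9.

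S100a8 and S100a9 encode the subunits of calprotectin, a calcium- and metal-binding protein abundant in neutrophil cytosol. S100a8 had 968, 1652 and 3355 counts among wild type libraries, 945, 831 and 362 among Mx1-Cre, and 34 and 1101 among Vav-Cre libraries. S100a9 had 961, 1741 and 3545, then 1132, 1016 and 354, then 31 and 1025. Vav-Cre 2 fell at the lower edge of the wild type libraries for both genes, at 107% and 100% of the lowest of them in CPM. The Vav-Cre differences from wild type were -1.84 ± 0.97 and -2.01 ± 1.00 on the log2 scale, and those of Mx1-Cre -1.40 ± 0.82 and -1.24 ± 0.84. Without Vav-Cre 1 the Vav-Cre differences were -0.90 and -1.06, and without Vav-Cre 2 they were -5.73 and -5.93.

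Ltf, Ngp, Camp and Lcn2 encode specific granule proteins: the iron-binding lactoferrin, the neutrophilic granule protein, the antimicrobial cathelicidin and the siderophore-binding lipocalin 2. Ltf had 1299, 1560 and 5280 counts among wild type libraries, 3330, 2670 and 269 among Mx1-Cre, and 6 and 956 among Vav-Cre libraries. Ngp had 4921, 8334 and 19026, then 7304, 9295 and 1288, then 76 and 4139. Mx1-Cre 3 and Vav-Cre 1 were thus the low libraries of both genes, and Mx1-Cre 1 and 2 were inside the wild type range. Camp had 771, 1702 and 2904 counts among wild type libraries, 906, 951 and 217 among Mx1-Cre, and 31 and 1040 among Vav-Cre libraries. Lcn2 had 212, 554 and 1473, then 598, 381 and 97, then 9 and 537. For these 2 genes Vav-Cre 2 lay within the wild type range, while for Ltf and Ngp it reached 69.1% and 79.0% of the lowest wild type level. Against wild type the 4 genes differed in Vav-Cre by -2.52 ± 1.34, -2.39 ± 1.22, -1.78 ± 1.04 and -1.48 ± 1.17 on the log2 scale. Without Vav-Cre 1 these were -1.54, -1.42, -0.83 and -0.51, and without Vav-Cre 2 they were -8.65, -7.01, -5.71 and -6.21.

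Cd177, a glycolipid-anchored surface and granule protein of neutrophils, was at 0 in 2 libraries, of different groups. It had 343, 319 and 1015 counts among wild type libraries, 373, 346 and 0 among Mx1-Cre, and 0 and 246 among Vav-Cre libraries. The zero counts of Mx1-Cre 3 and Vav-Cre 1 stand beside 1288 and 76 Ngp counts in the same libraries. Its Vav-Cre difference from wild type was -2.21 ± 1.62 on the log2 scale and -1.22 without Vav-Cre 1. Without Vav-Cre 2 the only Vav-Cre library left was at 0.

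By edgeR none of the 9 genes was called in any of the 3 comparisons, where 0.511% of all tested genes were called for Vav-Cre against wild type, 2.49% for Mx1-Cre against wild type and 0.170% for Vav-Cre minus Mx1-Cre. At an unadjusted p under 0.05 the counts were 2, 0 and 2, both times Retnlg and Mmp8, and DESeq2 called the same 2, 0 and 2. Over the 7 remaining genes the edgeR adjusted p ran from 0.420 to 0.650 for Vav-Cre against wild type. All 9 fold changes were negative in Vav-Cre against wild type (median log2 -2.21, against -0.01 over all tested genes), 8 in Mx1-Cre against wild type (median -0.99, against 0.01) and 9 in Vav-Cre minus Mx1-Cre (median -1.07, against 0.01). The first 2 comparisons share the wild type libraries and each shares a knockout group with the last, so these counts are not independent of each other. Without Vav-Cre 1 the Vav-Cre minus Mx1-Cre differences of S100a8, S100a9, Camp and Lcn2 turned positive, at 0.50, 0.17, 0.46 and 0.48.

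Every Vav-Cre library lay below every wild type library for 5 of the 9 genes (Retnlg, Mmp8, Ltf, Ngp and Cd177), as it did for 17.1% of all tested genes. With DESeq2's size factors S100a9 joined them and the count was 6. Mx1-Cre lay wholly below wild type for S100a8 alone, as for 14.8% of tested genes, and Vav-Cre wholly below Mx1-Cre for Retnlg and Mmp8, as for 12.0%. The Mx1-Cre count is near the share of all genes.

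**Figure D2:**
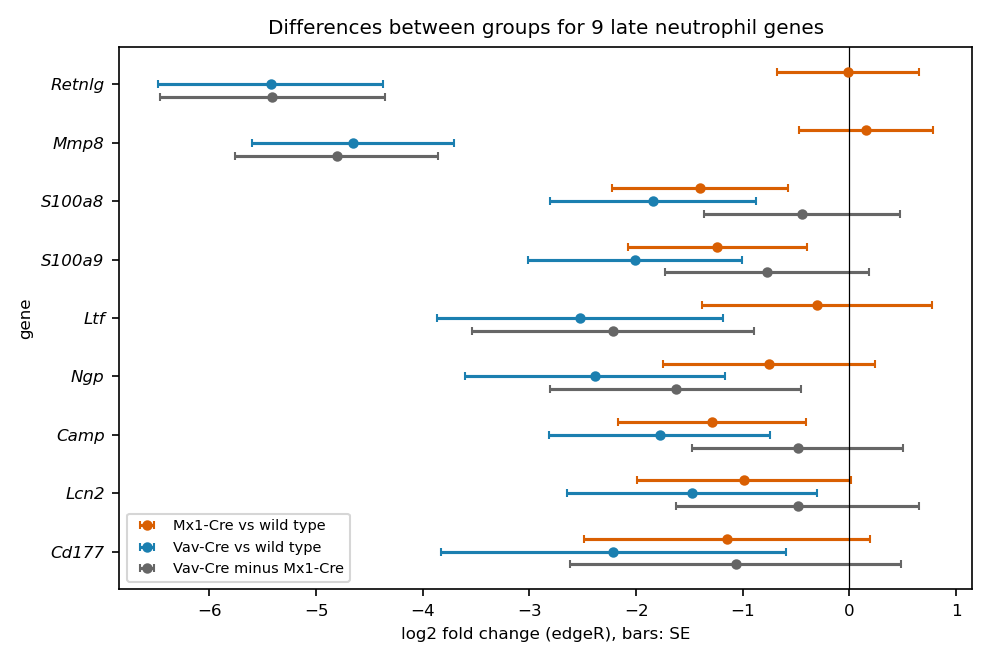
Log2 fold changes of the 9 genes in the 3 comparisons (points) with their edgeR SE (bars). Retnlg and Mmp8 lie at -5.43 and -4.65 for Vav-Cre against wild type and at -0.02 and 0.16 for Mx1-Cre against wild type, while the bars of the other 7 genes overlap between the comparisons.

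The levels moved together across libraries for most of these genes, but not for Retnlg and Mmp8. To show this each gene's count was divided by the Ngp count of the same library, a choice made after the values had been seen. In the 7 libraries without Vav-Cre 1, which had only 76 Ngp counts, the level of Ngp itself spanned 12.9-fold from lowest to highest. Over the same libraries S100a8 ranged from 89.4 to 281 counts per 1000 Ngp counts (a span of 3.14-fold), S100a9 from 109 to 275 (2.51-fold), Ltf from 187 to 456 (2.44-fold), Camp from 102 to 251 (2.46-fold) and Lcn2 from 41.0 to 130 (3.17-fold). The CPM of these 5 genes spanned 8.12-fold to 17.2-fold, so each gene spanned less relative to Ngp than in CPM. In Vav-Cre 1, left out of these spans, they stood at 78.9 (Ltf) to 447 (S100a8) counts per 1000 Ngp counts. Counts of a gene are compared here between libraries, not between genes, whose lengths differ.

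Retnlg ranged from 1.93 to 97.8 counts per 1000 Ngp counts over those 7 libraries, a span of 50.6-fold. It stood at 29.7, 6.48 and 17.8 among wild type libraries, at 34.0, 14.2 and 97.8 among Mx1-Cre and at 1.93 in Vav-Cre 2. Mmp8 stood at 19.9, 14.6 and 9.88 among wild type libraries, 32.6, 12.3 and 67.5 among Mx1-Cre and 0 in Vav-Cre 2. Among these 7 libraries both genes were therefore highest relative to Ngp in Mx1-Cre 3, whose Ngp was low, and lowest in Vav-Cre 2. In Vav-Cre 2 Camp and Lcn2 lay within the wild type range. Ltf and Ngp were there at 69.1% and 79.0% of the lowest wild type level. In absolute terms Mx1-Cre 3 held 4.47 CPM of Retnlg and 3.09 of Mmp8, beside wild type lows of 1.77 and 3.24, whereas its Ngp was at 45.7 beside a wild type low of 162. Vav-Cre 2 held 0.248 CPM of Retnlg, 14.0% of the lowest wild type level, and its Ngp was at 128. In Vav-Cre 1, on only 76 Ngp counts, the genes parted: Retnlg was at 0 and Mmp8, with 10 counts, at 132 per 1000 Ngp counts, its highest of the 8 libraries. Cd177 behaved differently again, at 37.2 to 69.7 counts per 1000 Ngp counts in 6 libraries and 0 in Mx1-Cre 3 and Vav-Cre 1.

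**Figure D3:**
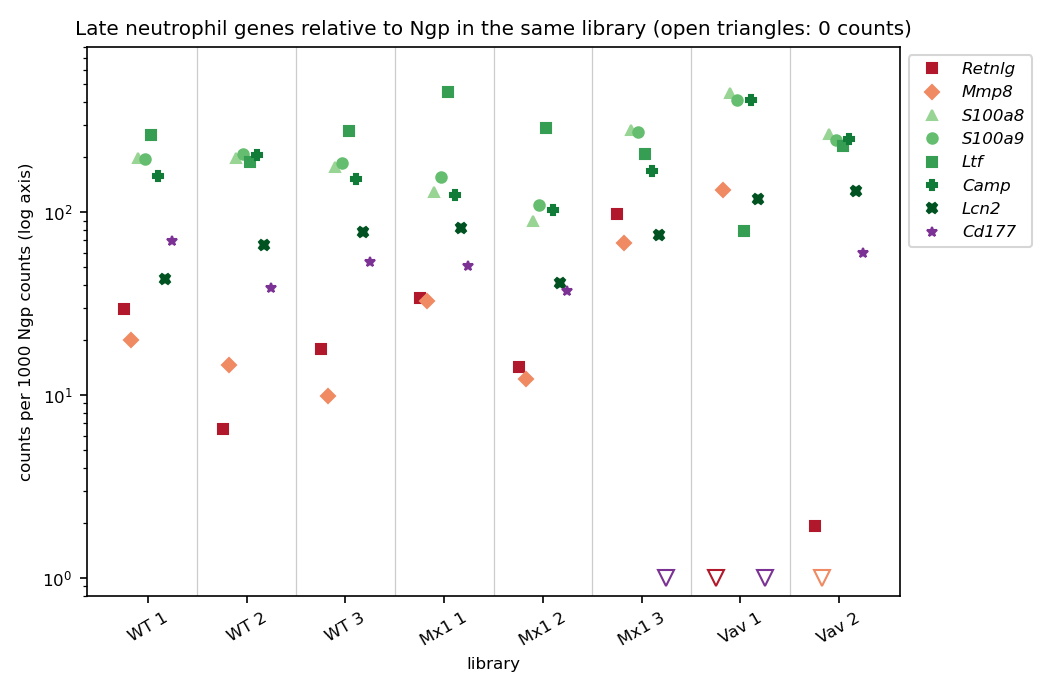
Counts of 8 late neutrophil genes per 1000 Ngp counts in the same library (log axis), with open triangles for 0 counts. S100a8, S100a9, Ltf, Camp and Lcn2 keep within about the same band in the libraries other than Vav-Cre 1, while Retnlg and Mmp8 lie at 97.8 and 67.5 in Mx1-Cre 3, at 1.93 and 0 in Vav-Cre 2 and at 0 and 132 in Vav-Cre 1.

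Most of these genes varied together with Ngp, whereas Retnlg and Mmp8 did not and Cd177 behaved differently again. The 250 bases before the start of Retnlg, Mmp8, Ngp and Camp are therefore shown. They are from RefSeq on build GRCm38.p6 (the counts were made on mm9, so only the genes were matched). All 9 genes had an entry. Capitals mark matches, on either strand, to the C/EBP-type motif TTNNGNAA, the ETS-type motif AGGAAG or TATAAA, and no matches overlapped in these windows. C/EBP-epsilon and the ETS factor PU.1 are known regulators of granule genes. Retnlg and Mmp8 are the pair at or near 0 in both Vav-Cre libraries, Ngp is the reference of the ratios, and Camp is the gene without a C/EBP-type match.
Retnlg (chr16:48872358-48872607, plus strand): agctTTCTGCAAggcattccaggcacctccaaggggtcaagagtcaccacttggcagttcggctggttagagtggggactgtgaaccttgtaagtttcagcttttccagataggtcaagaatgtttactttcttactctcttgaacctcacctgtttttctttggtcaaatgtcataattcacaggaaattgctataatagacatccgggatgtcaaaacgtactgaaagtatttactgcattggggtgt
Mmp8 (chr9:7558179-7558428, plus strand): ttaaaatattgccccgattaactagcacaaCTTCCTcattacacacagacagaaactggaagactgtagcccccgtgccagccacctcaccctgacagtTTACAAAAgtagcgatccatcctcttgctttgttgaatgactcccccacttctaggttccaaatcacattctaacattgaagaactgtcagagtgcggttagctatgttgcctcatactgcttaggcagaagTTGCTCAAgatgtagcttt
Ngp (chr9:110419558-110419807, plus strand): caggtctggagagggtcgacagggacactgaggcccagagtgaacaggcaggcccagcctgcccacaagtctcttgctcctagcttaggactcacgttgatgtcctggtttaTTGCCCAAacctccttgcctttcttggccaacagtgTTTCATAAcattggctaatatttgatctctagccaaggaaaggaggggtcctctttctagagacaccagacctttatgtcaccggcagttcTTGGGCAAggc
Camp (chr9:109849457-109849706, minus strand): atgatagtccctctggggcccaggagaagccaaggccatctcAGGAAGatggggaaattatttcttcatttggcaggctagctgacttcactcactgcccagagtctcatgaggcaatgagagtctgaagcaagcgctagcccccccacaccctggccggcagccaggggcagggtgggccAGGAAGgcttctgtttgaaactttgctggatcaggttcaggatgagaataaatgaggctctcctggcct

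The C/EBP-type motif was found in 8 of the 9 windows, all but that of Camp, and in 36.8% of 32851 RefSeq windows of the same length. Ngp had 3 matches, S100a9, Ltf and Mmp8 had 2 each, and Retnlg, S100a8, Lcn2 and Cd177 had 1. The ETS-type motif was in 5 (Mmp8, S100a8, Ltf, Camp and Lcn2), beside 29.5% of all windows, and TATAAA in 2 (S100a8 and Cd177), beside 12.4%. Retnlg had no ETS-type match and Mmp8 had 1. A match is a stretch of letters and not a measured binding site. S100a8 and S100a9 start 26.7 kb apart on chromosome 3, and Ngp lies 570 kb from Camp and 599 kb from Ltf on chromosome 9, also the chromosome of Mmp8.

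Other late neutrophil genes differed in whether they were present in Vav-Cre 2. Of 50 listed, 48 were in the table and 38 were tested. For Vav-Cre against wild type 1 was called lower and none higher (12 at an unadjusted p under 0.05), 31 fold changes were negative with a median of -1.04, and 17 had both Vav-Cre libraries below every wild type one, beside the 17.1% of all tested genes. In Mx1-Cre against wild type none was called lower by edgeR (8 in either direction at an unadjusted p under 0.05), 28 were negative with a median of -0.51, and 8 lay wholly below, beside 14.8%. In Vav-Cre minus Mx1-Cre none was called by edgeR (8 at an unadjusted p under 0.05), 23 were negative with a median of -0.54, and 10 lay wholly below, beside 12.0%.

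The gene called lower was Fpr1, the receptor for bacterial formyl peptides, with 40, 27 and 46 counts among wild type libraries, 21, 13 and 7 among Mx1-Cre and 0 in both Vav-Cre libraries (edgeR adjusted p = 0.0481). Taking 3 counts per Vav-Cre library as the upper limit, it was at least 12.2-fold lower than the wild type mean of 1.21 ± 0.288 CPM (n = 3). The call was lost without any 1 wild type library, without Mx1-Cre 1 and without either Vav-Cre library (adjusted p = 0.0695 to 0.169). Adam8, a membrane metalloprotease of granulocytes, had 47, 46 and 84 counts among wild type libraries, 91, 54 and 23 among Mx1-Cre and 0 and 2 among Vav-Cre, with a log2 fold change of -5.70 ± 1.05 against wild type (adjusted p = 0.0502, or 0.0184 without the filter on low counts). Like Retnlg and Mmp8 it was nearly absent from Vav-Cre 2, at 4.11% of the lowest wild type level. Ncf4, a subunit of the phagocyte oxidase, was at 631 to 2301 counts in every library, and its Vav-Cre minus Mx1-Cre difference was -1.17 ± 0.31 (edgeR adjusted p = 0.173).

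Of the 38 genes, 4 had counts in every wild type library and 0 in both Vav-Cre libraries, as had 0.483% of all tested genes: Fpr1, Mmp25, Trem1 and Ceacam10. Their wild type means were 1.21, 0.245, 0.330 and 0.528 CPM, so that all except Fpr1 were close to the floor of about 0.0990 CPM. The genes in the rest of this paragraph were picked after their values had been seen. Mmp9, the gelatinase of the latest granules, had 35, 67 and 143 counts among wild type libraries, 171, 69 and 42 among Mx1-Cre and 0 and 13 among Vav-Cre. Chi3l3, a secreted chitinase-like protein, had 857, 989 and 2726, then 706, 1108 and 115, then 6 and 1653. Mmp9 was thus kept in Mx1-Cre 3 and low in Vav-Cre 2, as were Retnlg and Mmp8, and Chi3l3 showed the reverse, as did Ngp. Not all genes of the list followed either pattern. Mgam had 59, 30 and 57 counts among wild type libraries, 2 in Mx1-Cre 3 and 5 and 5 among Vav-Cre. Clec4d had 104, 84 and 87 among wild type libraries, 175 in Mx1-Cre 3 and 83 and 108 among Vav-Cre.

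Over the 8 libraries, the genes whose log2 CPM was most like the mean standardised log2 CPM of the 9 were led by Cybb, the catalytic subunit of the phagocyte oxidase, among 12073 ranked genes (Pearson r = 0.982 and Spearman rho = 0.976 over 8 libraries, and r = 0.947 without Vav-Cre 1 and Mx1-Cre 3). Cybb had 351, 452 and 1051 counts among wild type libraries, 475, 345 and 90 among Mx1-Cre and 6 and 367 among Vav-Cre. Next came Pld4 (r = 0.978), C3 (0.966), Sh3d21 (0.960), Zfp39 (0.959), Igsf9 (0.952), Fosb (0.950), Xdh (0.942), C5ar1 (0.938) and Chi3l3 (0.937). C3 is a complement component, C5ar1 the receptor for complement fragment C5a and Fosb an AP-1 transcription factor. Without the 2 low libraries r was lowest for Chi3l3 and Xdh, at 0.521 and 0.613. These values describe how the libraries line up, share the libraries and their depth, and carry no test.

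Summed levels of genes of earlier granulocyte stages spread less between libraries than that of the 9 genes. They differed 1.83-fold from lowest to highest for primary granule genes and 1.68-fold for regulators. Single genes, picked after their values had been seen, spread more or less than these sums. Elane ran from 5.33 CPM (Mx1-Cre 2) to 148 (wild type 1) and Fcnb from 0.175 (Vav-Cre 1) to 14.5 (wild type 3). The regulator Cebpe ran from 0.0701 (Vav-Cre 1) to 1.62 (wild type 3), whereas Hexa of the primary granule list stayed at 127 to 155. The primary granule genes, 13 tested of 15 listed, summed to 828 to 1096 CPM for wild type libraries, 626 to 663 for Mx1-Cre and 598 to 771 for Vav-Cre. Mpo, myeloperoxidase, was the gene called in each knockout line, lower in both, with 11127, 9685 and 6896 counts among wild type libraries, 4138, 1935 and 2368 among Mx1-Cre and 1938 and 2324 among Vav-Cre. Its log2 fold change was -1.67 ± 0.25 in Mx1-Cre (edgeR adjusted p = 0.0103) and -2.10 ± 0.29 in Vav-Cre (adjusted p = 0.0244). The Vav-Cre call was lost without wild type 2 (0.0964) or Vav-Cre 2 (0.101), and the Mx1-Cre call without wild type 2 (0.0513). In Vav-Cre 1, where most of the late genes were lowest, Mpo was at 67.9 CPM, beside 70.2 to 128 in the other knockout libraries. Between the knockout lines none of the 13 was called by edgeR (3 at an unadjusted p under 0.05). The 4 with the smallest p were the serine proteases Prss57 (Vav-Cre minus Mx1-Cre 1.03 ± 0.33, edgeR adjusted p = 0.238) and Prtn3 (1.22 ± 0.46, adjusted p = 0.299), Cst7, a cystatin (-0.87 ± 0.51, adjusted p = 0.503), and Igll1 (-3.30 ± 1.25, adjusted p = 0.300). Igll1 is known as a gene of early B cells and stands in the B cell list as well. The Prtn3 difference rested on Vav-Cre 2, with 7090 counts beside 1571 in Vav-Cre 1, and was -0.10 without it.

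Of 14 tested granulocyte regulators out of 15 listed, 2 were called, both lower in Mx1-Cre against wild type. Csf3r, the receptor for granulocyte colony-stimulating factor, had 2853, 1781 and 1834 counts among wild type libraries, 516, 465 and 274 among Mx1-Cre and 460 and 1260 among Vav-Cre (-2.30 ± 0.35 in Mx1-Cre, edgeR adjusted p = 0.0112). Gfi1, a transcriptional repressor needed for neutrophil development, differed by -1.15 ± 0.23 (adjusted p = 0.0295), a call lost without any 1 wild type or Mx1-Cre library (adjusted p = 0.0605 to 0.150). In Vav-Cre minus Mx1-Cre none was called by edgeR (3 at an unadjusted p under 0.05). The cytokine receptor subunits Csf2rb2 and Csf2rb stood at 1.58 ± 0.42 and 1.01 ± 0.31 (edgeR adjusted p = 0.173 and 0.222), Csf3r at 0.96 ± 0.37 (0.313) and the C/EBP family gene Cebpg at -0.55 ± 0.25 (0.380). In Vav-Cre against wild type none of the 14 was called by edgeR (4 at an unadjusted p under 0.05).

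Markers of other mature cells were counted beside the late neutrophil genes. The summed level of the 9 genes differed 167-fold between the highest and lowest of the 8 libraries and 11.6-fold without Vav-Cre 1. For the other late neutrophil list, which includes abundant genes, it was smaller than for any other list. For the lists of primary granule, regulator, monocyte, B cell, T and NK cell, erythroid, megakaryocyte and stem cell genes the same ratio lay between 1.53 and 2.59. Abundant genes also made up most of some of these sums. Car2 held 5523 of the 5859 CPM of the erythroid sum in wild type 1. Cd79b held 70.6 of the 85.6 CPM of the B cell sum in Vav-Cre 1. Single erythroid genes, picked after their values had been seen, could spread more or less than their sum. Car1 ran from 1.58 CPM (Vav-Cre 1) to 208 (Mx1-Cre 3), whereas Tspan33 stayed at 1.58 to 2.73. The 22 monocyte and macrophage markers, 20 of them tested, summed to 113 to 173 CPM for wild type libraries, 102 to 141 for Mx1-Cre and 99.9 to 127 for Vav-Cre. None of these 20 was called by edgeR in Vav-Cre against wild type (10 at an unadjusted p under 0.05), the median log2 fold change was -1.74, and 10 had both Vav-Cre libraries below all wild type ones, beside 17.1% of all tested genes. In Mx1-Cre against wild type edgeR called 1 of the 20 lower, beside 2.49% of all tested genes called. Csf1r, the receptor that defines monocytes and macrophages, had 94, 78 and 60 counts among wild type libraries, 33, 11 and 84 among Mx1-Cre and 30 and 2 among Vav-Cre. Its Mx1-Cre 3 count lay inside the wild type range, in the library with 2800 late neutrophil counts. In Vav-Cre 1, 6 of the 22 monocyte markers were at 0 (Ly86, Ccr2, Cx3cr1, Ifitm6, Marco and Ear2), and the last 2 had at most 1 count in any library.

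The B cell list summed to 80.2 to 119 CPM for wild type libraries, 67.8 to 97.3 for Mx1-Cre and 45.7 to 85.6 for Vav-Cre, and the T and NK cell list to 137 to 194, 116 to 149 and 83.5 to 126. Of the 22 T and NK cell genes 8 passed the filter, and the defining T cell gene Cd3e had 1 count in all 8 libraries together. The erythroid list summed to 5109 to 6034 CPM for wild type libraries, 6315 to 7785 for Mx1-Cre and 4644 to 6439 for Vav-Cre, and the megakaryocyte and platelet list to 2644 to 3290, 1655 to 1835 and 1388 to 2283. The genes of these lists named here were picked after their values had been seen. Of 15 tested erythroid genes edgeR called 3 lower in Vav-Cre against wild type, and 11 fold changes were negative. In Mx1-Cre against wild type it called none of the 15. Over all tested genes the shares called in these 2 comparisons were 0.511% and 2.49%. The edgeR calls in Vav-Cre against wild type included the membrane skeleton gene Add2 (adjusted p = 0.00615) and the surface protein gene Rhd (adjusted p = 0.0269). Ermap, of the same list, had 503, 846 and 784 counts among wild type libraries and 0 and 72 among Vav-Cre. Its Mx1-Cre counts were 1118, 798 and 750. Add2 had 105, 205 and 151 counts among wild type libraries, 222, 217 and 152 among Mx1-Cre and 2 and 5 among Vav-Cre, and it kept its call without each library in turn. Of 18 tested megakaryocyte and platelet genes 2 were called lower in Vav-Cre against wild type, F2rl2 (edgeR adjusted p = 0.0154) and Thbs1 (0.0376). In Mx1-Cre against wild type 3 of the 18 were called lower by edgeR. The Vav-Cre calls of Rhd, F2rl2 and Thbs1 were each lost without 1 or more single libraries, wild type 2 among them (adjusted p = 0.0964 to 0.103). The part of such other mature cells in the levels of the 9 genes was not tested.

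**Figure D4:**
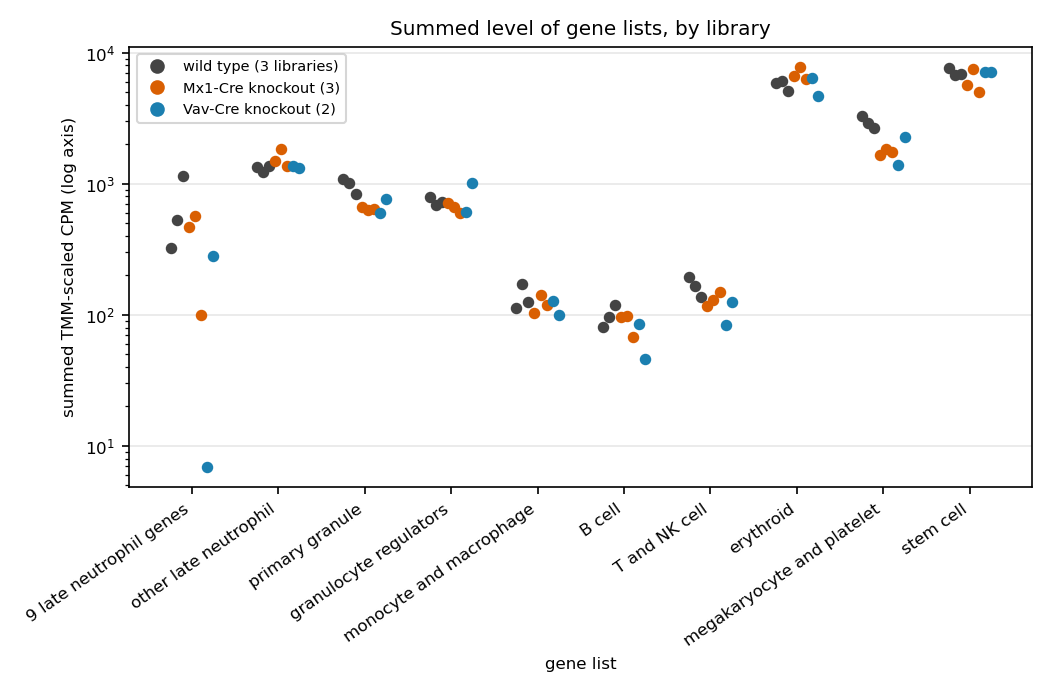
Summed TMM-scaled CPM (log axis) of the 9 late neutrophil genes and of 9 other gene lists, with 1 point a library, coloured by group. The 9 genes spread from 6.90 to 1155 CPM, while the stem cell list stays between 5022 and 7700. The other late neutrophil list includes genes such as Lyz2 and Anxa1 that had at least 7503 counts in every library. The erythroid list includes Car2, which had at least 142769 counts in every library.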

How the data were processed

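The deposited table gives raw counts, whole numbers by gene symbol, for 23358 genes in 8 libraries, of which 5996 genes had no count. Per the labels' protocols, cDNA (SMARTer Ultra Low Input) and libraries (NEBNext) were unstranded, so reads of overlapping antisense genes cannot be separated. The submitters' processing notes list mm9, edgeR, HTSeq, TopHat and SAMtools. HTSeq's annotation and strand option are not stated here. Groups came from sample titles.

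The counts were fitted in edgeR 4.0.16 (R 4.3.3) over all 8 libraries, after filterByExpr (minimum count 10, minimum total 15) and TMM scaling (factors 0.961 to 1.03), with Benjamini-Hochberg adjustment over the 14086 tested genes and calls below 0.05. SEs were log2 fold changes divided by the square root of F. The script was tested on simulated data. DESeq2 1.42.0, other scalings and filters, fits restricted to both groups of a comparison, a replicate block and leaving out each library were alternatives. Intervals and limits for 0 counts cover counting error only, since reads carry no molecular identifiers.

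The 9 genes and all lists were chosen with earlier results of these data known. Named were the 9 genes, up to 4 genes per granulocyte list with the smallest unadjusted p in Vav-Cre minus Mx1-Cre, and the 10 other genes most like the 9 in Pearson r with mean log2 CPM of at least 0 (prior count 2). Mpo, Elane, Fcnb, Hexa, Gfi1, Cebpe, Mmp9, Chi3l3, Mgam, Clec4d, Csf1r, Cd3e, Cd79b, Car1, Car2, Tspan33, Add2, Rhd, Ermap, F2rl2, Thbs1 and the genes at 0 in Vav-Cre were named after their values had been seen. The second deposited table, of normalized counts, was not used. Results for some genes of the lists are not reported here.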

Additional observations from a re-analysis of the deposited data

Results flagged for a closer look

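The difference between the knockout lines was itself past the threshold for the erythroid gene Add2, named after its values had been seen. In Vav-Cre minus Mx1-Cre edgeR called 2 of 15 tested erythroid genes, both lower, and 2 of 20 tested stem cell genes, both higher. Over all tested genes the share called was 0.170%. The Vav-Cre minus Mx1-Cre log2 difference of Add2, a membrane skeleton gene, was -5.83 (edgeR adjusted p = 0.00726). It had 2 and 5 counts in the Vav-Cre libraries and 222, 217 and 152 in the 3 Mx1-Cre libraries. The call held without each library in turn.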

How the results depend on the processing

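Of the alternative values for the 9 genes' fold changes, 383 kept direction and side of the threshold, 12 turned direction and 10 passed the threshold where the reported value did not. The number of the 9 genes called rose from 0 to 2 with DESeq2 and to 2 without the filter, in Vav-Cre against wild type and likewise in Vav-Cre minus Mx1-Cre, and was 0 to 1 when each library was left out in turn; in Mx1-Cre against wild type it was 0 throughout. The number of all genes called in Vav-Cre against wild type (72) was 586 with DESeq2, 174 without the filter, 111 with only the groups compared and 5 to 196 with a library left out. In Mx1-Cre against wild type (351) it was 1040 with DESeq2, 575 with only the groups compared and 58 to 565 with a library left out, and in Vav-Cre minus Mx1-Cre (24) it was 470, 81 without the filter, 3 with only the groups compared and 3 to 412. The cause was not tested. Leaving out a library moved the log2 fold change in Mx1-Cre against wild type between -0.44 and 0.77 for Retnlg, -0.27 and 0.42 for Mmp8 and -0.70 and 0.57 for Ltf. In Vav-Cre minus Mx1-Cre it moved between -4.33 and 0.50 for S100a8, -4.69 and 0.17 for S100a9, -4.42 and 0.46 for Camp and -5.22 and 0.48 for Lcn2, the positive ends without Vav-Cre 1, and between -0.10 and 1.90 for Prtn3. Where 1 Vav-Cre library was left, it was assumed to vary like the other groups. The added counts of non-overlap gave 6 in place of 5 for Vav-Cre against wild type with DESeq2 size factors.

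With the replicate number as a block, 20 genes were called in Vav-Cre against wild type, 235 in Mx1-Cre against wild type and 9 in Vav-Cre minus Mx1-Cre, none of them among the 9 genes, and Retnlg turned to 0.25 in Mx1-Cre against wild type. Fpr1, Gfi1, F2rl2 and Thbs1 lost their calls under the block (adjusted p = 0.137, 0.0542, 0.0553 and 0.103). Deviations of same-numbered wild type and Mx1-Cre libraries correlated at -0.00163, 0.000727 and 0.129, so the samples were taken to share only a number. Depth limits Mmp25, Trem1 and Ceacam10, whose wild type means are within a few times the floor of 3 counts.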
